A study of Mus musculus with 7 samples.

Results

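The regions described here were open in preB cells of both genotypes that reached that stage and had no peak at any earlier stage. Peaks of 7 ATAC-seq lists that shared at least 1 bp were merged into union regions, and a region was chosen by the presence of a peak in WT preB and in Erg Rescue preB together with the absence of a peak in the other 5 libraries. Of 145247 union regions, 1708 met this rule, which is 1.18% of all regions and 2.58% of the 66190 regions that carried a peak in both preB libraries. Presence, absence and peak height in these lists are what the regions were selected on, so they are given as a description and no test was applied to them.

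ATAC-seq sequences DNA fragments released from accessible chromatin, and peaks are called wherever fragments pile up above background. Each of the 7 groups held 1 library of B-lineage cells sorted from mouse bone marrow, so no spread between animals is known and no difference below carries a p-value. The 3 WT libraries (pre-proB, proB and preB) came from Ergfl/fl mice, which have floxed alleles and no Cre. The Erg KO pre-proB library came from Rag1CreT/+;Ergdelta/delta mice, in which Cre expressed from the lymphoid progenitor stage had deleted Erg, and the 3 Erg Rescue libraries (pre-proB, proB and preB) carried in addition IgHVH10tar, a heavy chain allele that is already productively rearranged. All Erg Rescue and Erg KO cells therefore shared the Erg deletion. The number, sex and age of the animals behind a library are not given in its labels. Stages were taken from sample titles, and the source names gave another stage for all 3 Erg Rescue libraries, so the Rescue preB library is labelled preB by its title and pre-proB by its source name.

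PreB cells follow proB cells once a heavy chain has been rearranged and displayed with the surrogate light chain as the pre-B cell receptor. Signals from this receptor drive a burst of division, after which the cells leave the cell cycle, lower their response to IL-7 and recombine the light chain loci Igk and Igl. Transcription factors known for this step include E proteins, which bind E-boxes, the Ebf1 and Pax5 pair that fixes B-cell identity, Irf4, Foxo1, Ikaros family members and the octamer-binding factors with their coactivator Pou2af1. Most regulatory elements that change between such close stages are enhancers, which can lie far from the gene they serve, so the nearest gene given below is a position and not a target. The surface markers used to sort preB cells included B220 and CD24, and cells with CD43, IgM or IgD on the surface were left out. At least 1 promoter was open for 11 of 11 preB marker genes (among them Il2ra, Igll1 and Rag1) in both preB libraries, but open promoters of other lists were also common. In both preB libraries they numbered 8 of 10 for plasmacytoid dendritic cells, 8 of 10 for plasma cells, 5 of 9 for erythroid cells, 4 of 10 for myeloid cells and 3 of 10 for T cells. For stem and progenitor cells they numbered 8 of 10 in WT and 9 of 10 in Erg Rescue, and for NK and innate lymphoid cells 4 of 10 and 3 of 10.

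The DNA of 8 of these regions is shown because they carry the features that recur below, namely E-boxes, an EBF1 motif, an octamer and positions beside genes of the preB programme. Each line gives 200 bases of the GRCm38 plus strand centred on the WT preB summit, 5′ to 3′, and capitals mark every match, on either strand, to the 23 motifs that were searched.
Ebf1 to Clint1 interval, chr11:45280766-45280965: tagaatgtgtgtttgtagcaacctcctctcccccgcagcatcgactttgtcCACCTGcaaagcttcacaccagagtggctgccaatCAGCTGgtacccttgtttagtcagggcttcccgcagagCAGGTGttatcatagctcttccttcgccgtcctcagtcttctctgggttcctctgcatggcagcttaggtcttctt
Il1r2 exon, chr1:40090432-40090631: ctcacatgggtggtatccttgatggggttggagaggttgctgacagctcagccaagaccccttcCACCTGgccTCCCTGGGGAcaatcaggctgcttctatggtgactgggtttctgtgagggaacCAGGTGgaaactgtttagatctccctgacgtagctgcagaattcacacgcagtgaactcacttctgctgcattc
B230118H07Rik neighbourhood, chr2:101545640-101545839: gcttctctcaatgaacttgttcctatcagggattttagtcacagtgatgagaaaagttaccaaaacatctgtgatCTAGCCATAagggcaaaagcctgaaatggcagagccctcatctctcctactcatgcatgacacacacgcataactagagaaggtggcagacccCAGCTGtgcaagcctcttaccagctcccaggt
Trappc12 intron, chr12:28741352-28741551: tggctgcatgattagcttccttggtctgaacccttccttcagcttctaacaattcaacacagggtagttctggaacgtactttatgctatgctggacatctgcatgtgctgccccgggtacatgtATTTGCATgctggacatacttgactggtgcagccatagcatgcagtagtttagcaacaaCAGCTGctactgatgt
Blnk intron, chr19:40966829-40967028: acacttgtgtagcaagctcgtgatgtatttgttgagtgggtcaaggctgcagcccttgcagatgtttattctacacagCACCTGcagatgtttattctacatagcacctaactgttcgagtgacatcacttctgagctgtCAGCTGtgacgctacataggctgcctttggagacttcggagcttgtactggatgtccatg
Cd22 upstream, chr7:30888860-30889059: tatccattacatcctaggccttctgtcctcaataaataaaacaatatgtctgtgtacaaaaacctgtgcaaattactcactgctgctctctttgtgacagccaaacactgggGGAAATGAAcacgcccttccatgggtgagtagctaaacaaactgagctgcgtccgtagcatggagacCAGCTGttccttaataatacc
Mef2c promoter, chr13:83575941-83576140: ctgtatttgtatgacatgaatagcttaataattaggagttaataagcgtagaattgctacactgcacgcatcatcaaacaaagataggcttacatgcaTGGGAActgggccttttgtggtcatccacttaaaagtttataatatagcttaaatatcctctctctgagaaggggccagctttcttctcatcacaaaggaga
Igk V segments, chr6:70240253-70240452: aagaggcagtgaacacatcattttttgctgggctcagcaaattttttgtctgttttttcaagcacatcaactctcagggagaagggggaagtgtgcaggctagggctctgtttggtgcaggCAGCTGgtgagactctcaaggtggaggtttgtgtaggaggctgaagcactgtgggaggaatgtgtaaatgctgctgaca

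The capitals in the first line are 3 E-boxes, of the form CAGGTG (read on the plus or the minus strand) at bases 52 and 125 and CAGCTG at base 87, counted from the first base shown. In the Il1r2 line they are 2 CAGGTG matches at bases 65 and 127 and overlapping EBF1 matches (TCCCNNGGG) at bases 74 and 75. The B230118H07Rik line held CAGCTG at base 169 and a MEF2 match (CTANNNATA) at base 76, and the Trappc12 line held CAGCTG at base 185 and an octamer (ATGCAAAT on the minus strand) at base 126. In the Blnk line both E-boxes appear, at bases 79 and 141. The Cd22 line has a PU.1-IRF composite match (GGAANNGAA) at base 113 and CAGCTG at base 180. The Mef2c line, named for a start site inside the gene, holds only an Ikaros match (TGGGAA) at base 99. The Igk line holds a single CAGCTG at base 122.

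Outside immunoglobulin loci, X, Y and chromosome 18, which were left out of this ranking, the strongest regions stood beside or inside genes with quite different roles. The region with the best combined rank, chr11:45280656-45281153, lay at the promoter of the non-coding gene Gm12161 between Ebf1 and Clint1, 273 kb beyond the 3′ end of Ebf1 and 664 kb from the nearest Ebf1 start site. Its summit pileup, the number of fragments stacked at the highest point, was 62 in WT preB and 61 in Erg Rescue preB, with −log10 q of 51.8 and 48.6. The 2 libraries gave nearly the same height there. The region in an exon of Il1r2, which encodes a decoy receptor for interleukin 1, had pileups of 52 and 60, and the one in an intron of Ttc7b had 48 and 67. Both were higher in Erg Rescue than in WT.

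Region chr2:101545547-101546089 was intergenic and its nearest coding start site was that of B230118H07Rik, 75.3 kb away. Farther away on the same side of the region stood Rag2, 79.0 kb from the region, and Rag1, whose nearest start site was 104 kb away. These genes encode the recombinase that cuts the immunoglobulin loci. Its pileup was 47 in WT preB and 59 in Erg Rescue preB. The other 4 of the 8 strongest were in an intron of Trappc12, with pileups of 46 and 58, in the Cmtr1 and Ccdc167 neighbourhood, with 47 and 54, in an exon of Gpam, an enzyme of triglyceride synthesis, with 83 and 52, and 9.37 kb from a start site of Plxna1, a semaphorin receptor, with 54 and 52. The Gpam region had the highest WT preB −log10 q of all 1708 regions, 79.3, beside 38.1 in Erg Rescue.

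Such heights were rare. The median summit pileup of the 1708 regions was 19 in WT preB, with quartiles of 17 and 24, and 20 in Erg Rescue preB, with quartiles of 17 and 25. The lowest pileup that was called in any list lay between 10 and 12, so the typical region stood less than 10 fragments above the level at which a peak is lost. The median −log10 q was 6.93 in WT preB and 7.15 in Erg Rescue preB, against 35.1 and 45.1 for the 64482 regions open in both preB libraries that also had a peak elsewhere, called earlier-open regions from here on. A closer comparison is with the 9041 regions absent from the 3 pre-proB libraries and present in WT proB and both preB libraries, called proB-opened regions, whose median was 18.2 in each preB library. Only 298 regions (17.4%) reached a −log10 q of 10 in both preB libraries. Median width was 360 bp, compared with 833 bp in earlier-open and 567 bp in proB-opened regions. These are widths of merged regions. By the rule the first set merged peaks of 2 lists only, and the other sets merged peaks of more lists. The order of widths was therefore not independent of the selection.

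**Figure D1:**
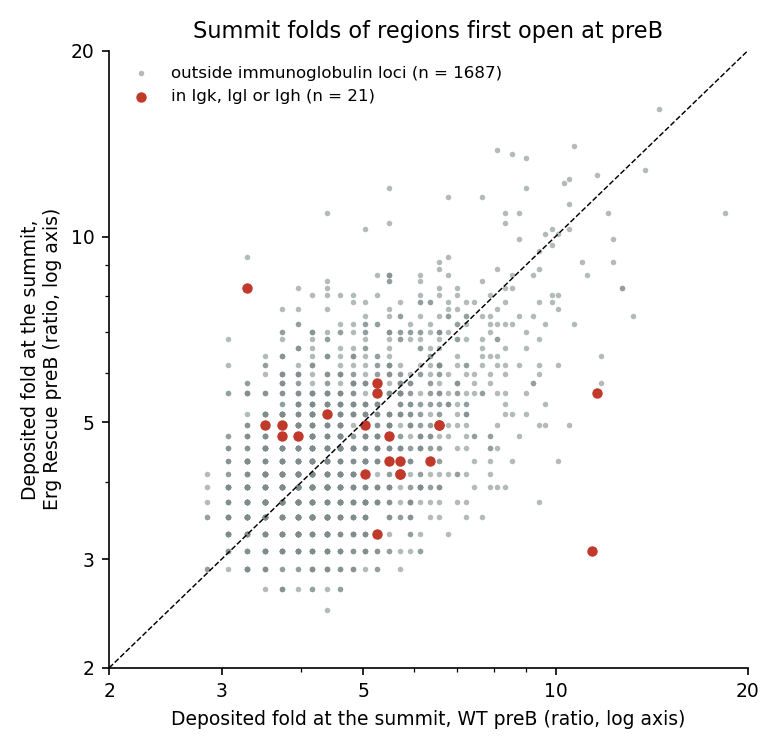
Deposited fold over background at the summit of each of the 1708 regions, WT preB on the horizontal and Erg Rescue preB on the vertical axis, both logarithmic, with the 21 regions in immunoglobulin loci in red and a dashed line of equal fold. Most points crowd at low folds, around the medians of 4.38 in WT and 4.33 in Erg Rescue. The 8 strongest regions named in the text were by rule taken from outside immunoglobulin loci.

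The rule required peaks of both lists in 1 merged region, which by itself brings the 2 summits near each other. In 1425 of 1708 regions (83.4%) the WT and Erg Rescue summits lay within 100 bp of each other, and the median distance was 44.0 bp. Heights tracked each other less well. Across the 1708 regions the folds of the 2 libraries gave a Spearman rho of 0.44 and, on the log2 scale, a Pearson r of 0.53, as a description over regions that share 2 libraries and were cut off from below by peak calling. The fold was higher in WT preB in 928 regions (54.3%).

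How WT and Erg Rescue cells compared at this stage was asked by looking up the regions that were new in WT. Of 71844 union regions with a WT preB peak, 5163 (7.19%) had no peak in WT pre-proB or WT proB. Of these, 62.6% (95% Wilson interval 61.3 to 63.9) had a peak in Erg Rescue preB, 28.4% (27.1 to 29.6) in Erg Rescue proB, 11.1% in the pre-proB library of Erg Rescue and 10.2% in that of Erg KO, while 31.4% (30.1 to 32.6) had a peak in no other library. Intervals on shares cover counting error only and treat regions as independent. The overlap with Erg Rescue preB exceeded that with Erg Rescue proB by more than the intervals, and the rule depends on these labels. With all 3 Erg Rescue stages read from the source names, which makes the library titled Erg Rescue proB the preB one, only 128 regions would meet the rule in place of 1708. Seen from the other genotype, 7435 Erg Rescue preB regions had no peak in Erg Rescue pre-proB or proB, of which 46.8% (45.7 to 48.0) were open in WT preB and 33.3% (32.2 to 34.4) in WT proB.

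The step from 3231 regions new in WT preB and shared by Erg Rescue preB to the final 1708 removed mainly regions already open in Erg Rescue proB, which held 1292 of the 3231 (40.0%). Counting each library that alone kept a region out, WT proB excluded 1498 regions, Erg Rescue proB 939, and the pre-proB libraries of Erg Rescue, Erg KO and WT 83, 64 and 27. Among the 14482 regions present in exactly 2 libraries, the pair of preB libraries ranked second of all pairs with 11.8%, after the 4992 regions shared by Erg KO pre-proB and Erg Rescue pre-proB and before the 1255 shared by WT proB and WT preB.

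At its limit the rule rested on the weakest called peaks. The 3 regions with the lowest WT preB value, chr1:191473776-191474129, chr11:24183723-24184182 (nearest to Bcl11a) and chr14:15885325-15885578, each had a WT preB −log10 q of 2.29 and a pileup of 12. Just outside stood chr10:60214505-60214973, chr11:57920241-57920563 and chr11:93229776-93230666, each kept out by a WT proB peak with a −log10 q of 2.01 and a pileup of 13. Their own WT preB peaks were taller, with −log10 q of 13.5, 15.3 and 36.2, beside 2.02, 2.02 and 29.3 in Erg Rescue preB. The background pileup, which stands for relative depth, was 3.56 in WT preB and 3.85 in Erg Rescue preB, below the 4.42 of WT proB and the 4.16 to 4.60 of the pre-proB libraries, and 3.49 in Erg Rescue proB. The 2 libraries required to have a peak were thus shallower than 4 of the 5 required to lack one. When only peaks with a −log10 q of at least 10 were kept in every list, 1593 regions met the rule, and just 298 of the 1708 (17.4%) overlapped one of them. The others of the 1593 had a weaker peak in at least 1 earlier-stage list that this limit had dropped.

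Few of these regions were promoters. A promoter, defined as the window reaching 1000 bp to each side of a transcription start site (TSS), was overlapped by 106 of 1708 (6.21%, interval 5.16 to 7.45), against 26.1% (25.8 to 26.5) of earlier-open and 8.76% (8.19 to 9.36) of proB-opened regions. The share was below both by more than the intervals. Of the 106, 38 had a coding TSS within 1000 bp of the summit and 68 did not, among them regions at variable segments of the immunoglobulin loci. Introns held 50.1% and intergenic DNA 40.4%. The median distance to the nearest coding TSS was 35466 bp, compared with 15574 bp for earlier-open and 29345 bp for proB-opened regions, and 24.8% (22.8 to 26.9) were more than 100 kb away, against 12.5% and 21.4%.

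**Figure D2:**
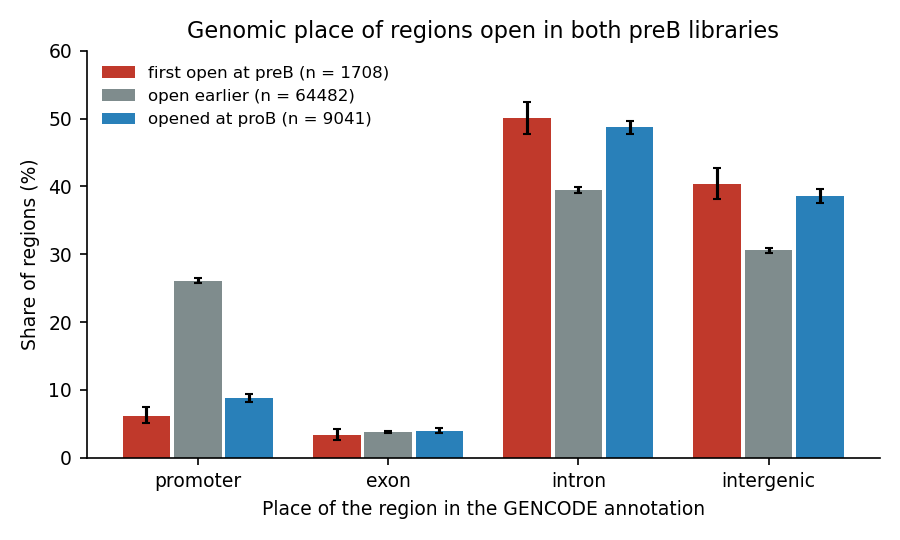
Share of regions in promoters, exons, introns and intergenic DNA, as a percentage of each set, for regions first open at preB (red), earlier-open regions (grey) and proB-opened regions (blue), with 95% Wilson intervals as error bars. The red promoter bar stands at 6.21%, below the grey bar at 26.1% and the blue bar at 8.76%, and the red intron bar is the tallest at 50.1%.

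Some of these regions lay close to a peak of another library. The nearest WT proB peak lay within 1 kb of 403 regions (23.6%) and at least 10 kb away from 357 (20.9%), with a median gap of 3348 bp. Over the other 5 libraries the share within 1 kb ran from 18.8% to 24.1%. It was not computed for other sets of regions, so closeness is not shown to be particular to these. With regions near any peak of the other 5 libraries left out, 1188 (69.6%) remained, and 4.80% of those were at promoters. Base composition differed between the sets. Median GC content of the 200 bp around the summit was 47.5%, against 51.0% in earlier-open and 48.5% in proB-opened regions, no CpG was present in 23.1% against 10.2% and 15.6%, and annotated repeats filled most of the window in 14.4% (12.8 to 16.1) against 6.60% and 12.4%.

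Motifs around the summit separated these regions from those that opened a stage earlier. The E-box CAGCTG, a form bound by E proteins, was present in the 200 bp window of 420 regions (24.6%, 22.6 to 26.7), against 20.1% of earlier-open and 21.7% of proB-opened regions and 20.2% of all union regions, differences of 4.49 points (2.48 to 6.61) and 2.84 points (0.68 to 5.10) from the first 2 sets. CAGGTG, which is also bound by E proteins and by Zeb and Snail factors, was found in 23.9% (21.9 to 26.0), against 20.1%, 20.0% and 19.9%. At least 1 of these 2 hexamers, which cannot occupy the same 6 bases, was present in 42.4% (40.1 to 44.8), against 35.5% and 37.2%. For CAGGTG the same letters in reversed order, used as a control, differed from earlier-open regions by 1.09 points (-0.17 to 2.54). For CAGCTG the reversed letters hold a CpG and, at 0.596% of earlier-open regions, were too rare to serve as a control.

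By contrast, the EBF1 motif TCCCNNGGG, which was present in 15.6% of proB-opened regions, was found in only 5.85% (4.84 to 7.07) of regions first open at preB, a difference of -9.71 points (-11.0 to -8.29). That share is close to the 5.86% of all union regions and is below the 7.18% of earlier-open regions by 1.32 points. Ebf1 is the pioneer-like factor of B-lineage commitment. The octamer ATGCAAAT, the site of Oct factors and Pou2af1, was present in 4.63% (3.73 to 5.73), more often than in earlier-open regions (2.63%) and all regions (2.04%) and less often than in proB-opened regions (6.32%), with a difference of -1.69 points (-2.73 to -0.49) from the last. CTCF, an insulator protein whose motif is named without its letters, matched 1.29% (0.85 to 1.94) here and 1.29% of proB-opened regions, but 5.45% of earlier-open regions.

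**Figure D3:**
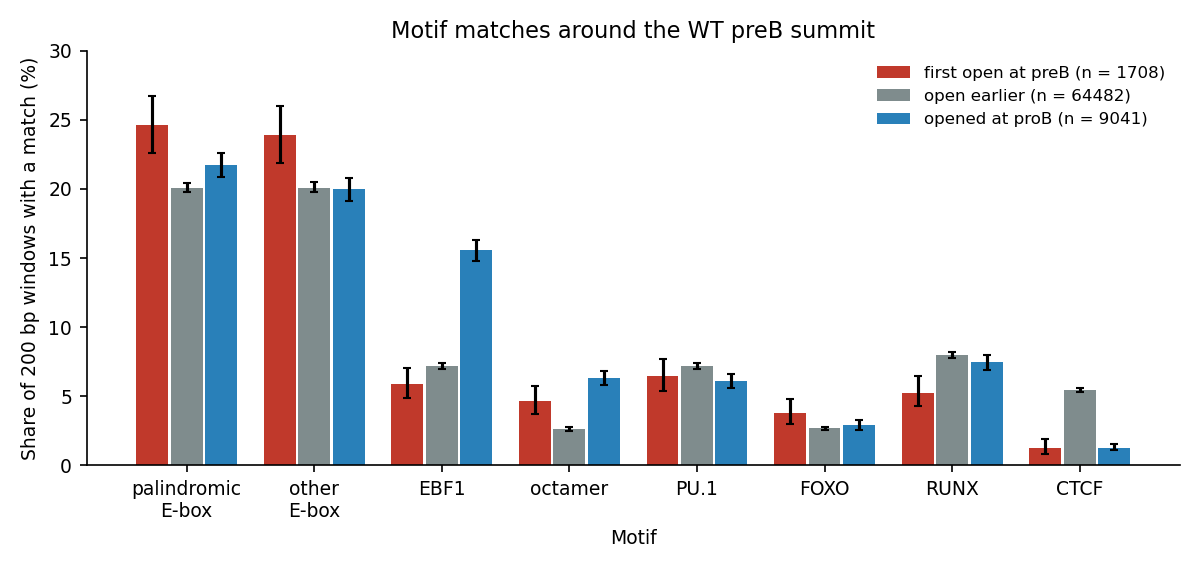
Share of 200 bp windows around the WT preB summit with a match to each of 8 motifs, in percent, for the same 3 sets and colours, with 95% Wilson intervals. The palindromic E-box is CAGCTG and the other E-box CAGGTG. The red bars are highest for both E-boxes, at 24.6% and 23.9%, while the blue EBF1 bar at 15.6% stands well above the red one at 5.85%.

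For most other motifs the differences in points were small. The ETS pattern CCGGAAGT, of the family that includes Erg, was rare, in 0.234% against 1.63% of earlier-open and 0.597% of proB-opened regions. The EGR pattern GCGTGGG was present in 0.585%, against 2.33% and 1.21%. Against earlier-open regions their reversed letters differed by 0.33 points for ETS and -1.04 for EGR. Both patterns hold a CpG, and windows held 2.09 CpG on average here against 6.09 in earlier-open regions. The reversed EGR letters keep a CpG. Those of ETS hold none, so they cannot serve as a control for CpG content. RUNX sites (TGTGGTT) were present in 5.27%, below earlier-open (7.99%) and proB-opened regions (7.45%), and the composite site GGAANNGAA of PU.1 with IRF factors in 6.67%, against 8.74% and 6.32%. FOXO sites (TGTTTAC) were present in 3.81%, against 2.68% and 2.91%, but the reversed letters differed by more, 2.02 points (1.07 to 3.17) from earlier-open regions. STAT5 sites (TTCNNNGAA), bound downstream of the IL-7 receptor, were present in 4.33%, against 5.42% and 6.54%, and the BCL6 pattern TTCNNAGAA is contained in them. Ikaros (TGGGAA) was found in 12.7%, against 14.5% and 13.6%, and in 16.0% of all regions. PU.1 (GAGGAAGT) was found in 6.44%, against 7.17% and 6.11%, and MEF2 (CTANNNATA) in 6.56%, against 5.06% and 6.67%.

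E-boxes were more frequent under taller peaks. Among the 522 regions with a WT preB −log10 q of at least 10, CAGCTG was present in 31.6% (27.8 to 35.7) and CAGGTG in 31.4% (27.6 to 35.5), and among the other 1186 in 21.5% (19.3 to 23.9) and 20.6% (18.4 to 23.0). In the same 2 classes, within which heights were not matched, earlier-open regions had CAGCTG in 21.0% and 16.1%, and proB-opened regions in 24.4% and 14.8%. In both classes the share was thus highest in regions first open at preB. The octamer was present in 5.17% (3.58 to 7.42) of the taller and 4.38% (3.36 to 5.70) of the lower regions first open at preB, against 7.09% and 4.31% of proB-opened regions, so its lower share was not seen among the lower peaks. EBF1 matches were present in 6.51% of the taller and 5.56% of the lower regions, below proB-opened regions (17.1% and 11.6%) in both classes. Against earlier-open regions, with 7.59% and 5.30%, EBF1 was not lower among the lower peaks.

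Matches were also concentrated at the summit. Within the 1000 bp around it, 515 CAGCTG matches lay less than 100 bp from the summit and 159 between 400 and 500 bp away, 3.24 times as many over the same 200 bp of sequence. The ratio was 2.19 for CAGGTG, 2.88 for EBF1, 3.88 for the octamer and 8.13 for PU.1, whose matches numbered 122 and 15. IRF (GAAANNGAA), the composite site and STAT5 showed no such concentration, with ratios of 0.65, 0.86 and 0.58.

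**Figure D4:**
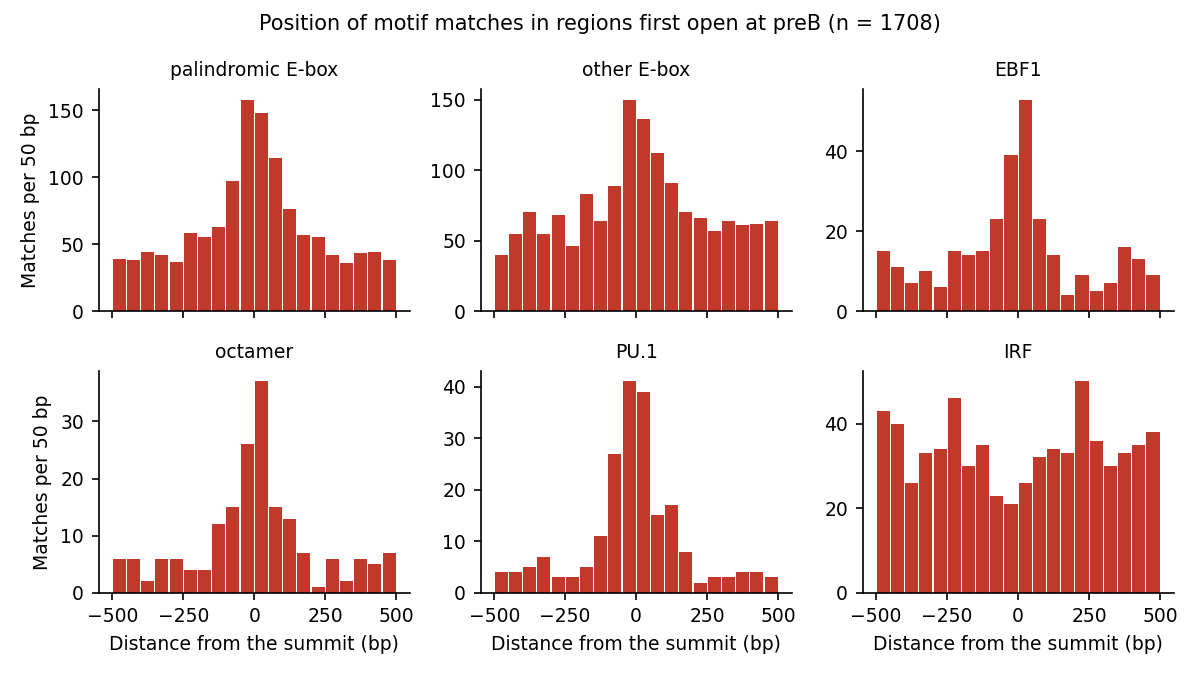
Number of motif matches per 50 bp in the 1708 regions, plotted against distance from the WT preB summit in bp, for 6 motifs on separate vertical scales. Both E-boxes, EBF1, the octamer and PU.1 peak at the summit, where the palindromic E-box (CAGCTG) has 158 and 148 matches in the 2 central bins, whereas IRF falls to 21 there.

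The light chain locus Igk held 12 of the regions, 0.703% of all those first open at preB, against 0.299% of earlier-open regions. Of these, 9 overlapped a promoter and 9 had their summit within 1000 bp of the start of an annotated segment, and 8 carried CAGCTG. The nearest segments were variable segments in all 12. At Igkv12-41 the summit was 40 bp from the segment start and the pileup was 28 in WT preB and 20 in Erg Rescue preB, and at Igkv6-29 it was 65 bp away with pileups of 22 and 19. The tallest, chr6:70240154-70240556, had pileups of 52 and 26, and chr6:70240867-70241312, also beside the segment Gm43218, had 51 and 14. The pileup was higher in WT preB in 9 of the 12 regions and the fold in 10.

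Most Igk regions open in both preB libraries had a peak at an earlier stage. Of 314 union regions within the locus and 50 kb on either side, 193 were earlier-open, of which 118 were proB-opened, and those that were neither earlier-open nor among the 12 lacked a peak in at least 1 preB library. WT cells had 75 open regions at pre-proB, 208 at proB and 224 at preB stage. Erg KO pre-proB cells had 79, and Erg Rescue cells had 86, 220 and 257 at the same 3 stages. CAGCTG was present in 40 of the 118 proB-opened Igk regions (33.9%) and the octamer in 47 (39.8%). Of the 12 regions first open at preB, 1 carried the octamer. Only the 200 bp around each summit were searched, and most of the 12 summits lay more than 100 bp from a segment start. An octamer beside the segment could thus fall outside the window. Whether the position of the summit accounts for the difference was not tested. The smaller locus Igl held 3 (0.176%, against 0.0248% of earlier-open regions). Among them was chr16:19063270-19063685, whose summit was 189 bp from the joining segment Iglj1, with pileups of 16 in WT preB and 23 in Erg Rescue preB. Its 43 regions included only 1 that was proB-opened. In the heavy chain locus Igh, one copy of which is altered in Erg Rescue mice, there were 6 regions (0.351%, against 0.220% of earlier-open regions). The 2 of best rank, chr12:115472798-115473174 and chr12:115286667-115287534, lay nearest to the variable segments Ighv8-9 and Ighv8-8. Their pileups were 23 and 27 in the first and 29 and 23 in the second. Together the 3 loci held 21 regions. Some variable segments are similar in sequence, and how reads that match several of them were placed is not given in the sources used here.

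Some regions lay in groups. With gaps of at most 50 kb, 529 of the 1708 (31.0%) fell into 221 clusters of 2 or more, 56 clusters held 3 or more, and 14 held 4 or more. The same share was not computed for other sets of regions. It therefore does not show more grouping than accessible regions have in general. A stretch of 164 kb in the variable part of Igk (chr6:69750660-69915125) held 6. Counting all union regions in that stretch, WT cells had 0, 6 and 12 open over the 3 stages. None was open in Erg KO pre-proB, and Erg Rescue cells had 0, 4 and 13. Another 6 lay in 100 kb around Suclg2, an enzyme subunit of the citric acid cycle, where open regions numbered 16 in WT preB and 11 in Erg Rescue preB against 2 to 5 in the other libraries.

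**Figure D5:**
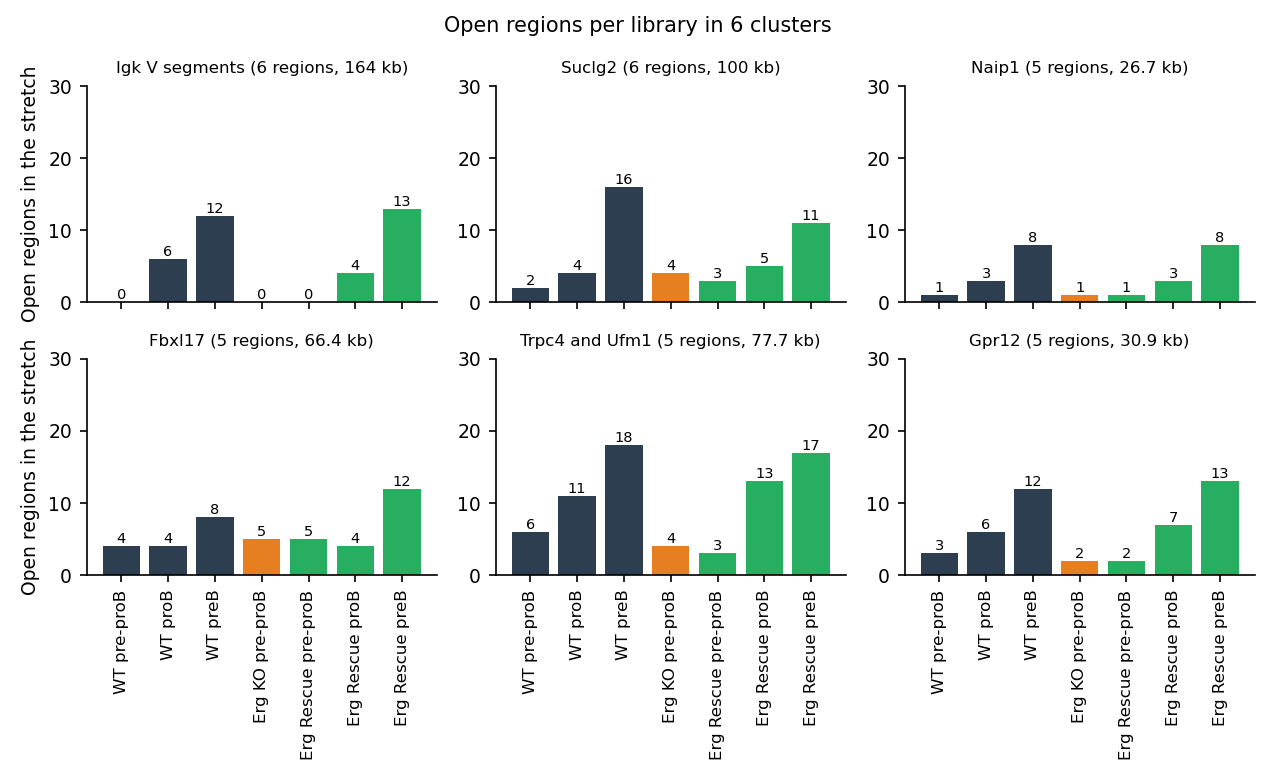
Number of union regions open in each library within the stretch of each of 6 clusters, with WT libraries dark blue, Erg KO orange and Erg Rescue green. The regions chosen by the rule are among those counted, and in the Suclg2 stretch the bars reach 16 in WT preB and 11 in Erg Rescue preB, against at most 5 in any other library.

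By nearest coding TSS, Rpia had 10 regions, Lrrn3 9, Clint1 and Pcdh9 8 each, and Lmo4, Zfp608 and Mef2c 7 each. All 10 regions assigned to Rpia lay in Igk, whose segments are not counted as coding genes, and the 9 assigned to Lrrn3 lay in introns of Immp2l, the gene that surrounds it. The 8 assigned to Clint1 lay in the gene desert between Ebf1 and Clint1 that holds the region of best rank, and the other 7 of them had WT preB pileups of 16 to 29. Lmo4 encodes a LIM-domain adaptor of transcription factor complexes and Zfp608 a zinc-finger protein.

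In all, 1252 of 21911 coding genes (5.71%) were the nearest to at least 1 region. The lists of B-lineage genes below hold many long genes in accessible surroundings, so beside each count stands the share of the list's own regions, open in both preB libraries, that were first open at preB, to be read against the 2.58% over all such regions. That 2.58% counts promoter regions, which made up 26.1% of earlier-open regions and 6.21% of those first open at preB. Shares without promoters were not computed, for the lists or for all regions.

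Transcription factors of late B-cell development stood out by number, with 21 of 52 genes and 47 regions, which were 4.11% (3.10 to 5.42) of the 1144 regions of the list. Mef2c, a target of pre-B receptor signalling needed for B-cell growth, had 7. One of them lay within the gene (chr13:83504034-83667080, plus strand), with its summit at 83576041, 364 bp from an internal start site. Its pileups were 26 in WT preB and 23 in Erg Rescue preB, and the other Mef2c regions were 111532 bp to 680874 bp from a start site. Sox4, an HMG-box factor of B-cell progenitors, had 4, the nearest with pileups of 18 and 29. Arid5b, a DNA-binding partner of a histone demethylase, had 3, of which the highest had 34 and 32. The Myc region of best rank had 24 and 36 and lay 408172 bp from the gene, the single Myb region was intronic with 26 and 27, and the single Zeb1 region had 24 in each. Myc and Myb drive progenitor proliferation, and Zeb1 is an E-box-binding repressor. Named after their values were seen, Ebf1, Foxo1 and Pou2af1 had 2 regions each, while Pou2af1 had 2, 8 and 10 open regions over the 3 WT stages, 1 in Erg KO pre-proB, and 1, 9 and 9 over the 3 Erg Rescue stages.

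Among genes of pre-B and B cell receptor signalling, 7 of 31 had a region and the 10 regions were 2.65% (1.45 to 4.81) of the list's 377, close to the overall share. Blnk, the adaptor that links the receptor to its downstream enzymes, had an intronic region with pileups of 30 in WT preB and 35 in Erg Rescue preB, the highest of the list. Prkcb, a protein kinase C of the NF-kB branch, had one with 24 and 32, and Rasgrp1, which activates Ras, one with 23 and 34. Erg Rescue was the higher in these 3. Cd22, an inhibitory co-receptor, had 22 and 23 at 8626 bp from a start site, and Syk, the kinase that starts the cascade, had 17 and 19 near the end of the gene. Cblb, a ubiquitin ligase that limits receptor signals, had 4, between 16 and 19 in WT preB. The list of V(D)J recombination and surrogate light chain genes had a single region, beside Brwd1, a chromatin reader used in light chain recombination, with 16 and 20, which was 1.75% (0.310 to 9.29) of the list's 57 regions, so Rag1, Rag2, Vpreb1 and Igll1 were the nearest coding gene of none.

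Of the IL-7 receptor and cell cycle exit list, 6 of 20 genes had 12 regions, 4.82% (2.78 to 8.23) of 249. Btg1, an antiproliferative protein, had 7 of them, and the highest in Erg Rescue, 15154 bp from the gene, had pileups of 25 in WT preB and 24 in Erg Rescue preB. The region nearest to Cdkn1a, the cell cycle inhibitor p21, had 22 and 26. Ccnd3, the D cyclin of dividing preB cells, had 19 and 22, E2f2 27 and 21 and Stat5a 22 and 16. The interval on the share of this list lay above the overall 2.58%, with 7 of the 12 regions at 1 gene, while those of the lists below include it.

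Surface and migration genes had few regions, in no constant direction between genotypes. For antigen presentation and costimulation, 3 of 16 genes had 4 regions, 4.55% (1.78 to 11.1) of 88. Cd83 had pileups of 40 in WT preB and 31 in Erg Rescue preB at its higher one, Cd74, the invariant chain of class II molecules, had 28 and 25, and Cd80 had 18 and 16. Of surface receptors of maturing B cells, 5 of 29 genes had 7 regions, 3.03% (1.48 to 6.12) of 231, with 2 at the complement receptor gene Cr2 (17 and 21, and 19 and 18), 2 at Cd200 (24 and 18, and 15 and 14), and 1 each at Tlr1, Cd38 and Cd24a. Of homing receptors, 5 of 20 genes had 7 regions, 2.83% (1.38 to 5.73) of 247. Cxcr4, which holds preB cells in the marrow, had 27 and 23 in one and 23 and 15 in the other, while S1pr1, which directs exit, had 21 and 19 in one and 14 and 44 in the other. Ccr9 had 19 and 30, Itgb1 15 and 28 and Rgs2 17 and 18. None of 12 survival genes of the Bcl2 family was the nearest coding gene of any region, out of 109 regions of theirs open in both preB libraries.

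Marker genes of other cells were also looked up by nearest coding TSS, and the intervals on the shares of all these lists include the overall 2.58%. The T-cell list had 1 of 10 genes (Cd4, 22 and 20), and its region was 2.94% (0.521 to 14.9) of the list's 34. Plasmacytoid dendritic cells had 2 of 10 genes (Tcf4 and Ccr9), with 2.94% (1.01 to 8.29) of 102 regions. Plasma cells had 2 of 10 (Prdm1 and Irf4, both also expressed in B-lineage cells), with 3.85% (1.51 to 9.47) of 104 regions. The lists for NK and innate lymphoid, myeloid, stem and progenitor and erythroid cells had none, of 10, 10, 10 and 9 genes. These lists had only 30, 30, 40 and 15 regions open in both preB libraries, with upper limits of 11.4%, 11.4%, 8.76% and 20.4%. Their lack of regions is therefore not informative. Irf4, which promotes light chain recombination, had 2 regions, one 20216 bp from a start site with pileups of 30 in WT preB and 23 in Erg Rescue preB that carried an octamer, and an intronic one with 16 and 14.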

How the data were processed

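ATAC-seq libraries of 7 sorted populations were sequenced as paired ends, aligned to mm10 (GRCm38) with Bowtie2 and passed to MACS2, 1 peak list per library. The submitters' processing notes also name CASAVA 1.8.2 and Picard. Other versions, peak calling options, duplicate handling and the read-end shift were not given in the sources used here, which name both sonication and Tn5 for fragmentation. The lists hold, as deposited by the authors, a score (the −log10 q times 10, without decimals), a fold, −log10 p and −log10 q at the summit, and the summit's offset. The fold is the ratio of summit pileup to background pileup, with 1 added to each.

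All deposited folds (100%) were whole multiples of 1 step per library to within 0.02, which gave the pileups. Lists held 76465 to 105649 peaks, with background pileups of 3.49 to 4.60. Read totals were not used here. Genes came from GENCODE M21, bases from the GRCm38 RefSeq genome, and motifs were searched on both strands with Python 3 scripts (numpy, pandas, pysam, scipy), tested on simulated lists. Shares carry 95% Wilson intervals and differences of shares the matching Newcombe intervals. With 1 library per group no test was run. The members, gene lists and motifs were chosen with earlier results of these data known. Named were the 8 members of best rank (the worse of the ranks by −log10 q in the 2 preB lists, outside immunoglobulin loci, X, Y and chromosome 18), up to 6 genes per B-lineage list, the 8 genes with most members, 4 members in immunoglobulin loci and 3 regions on each side of the rule. Some items that these rules name are not reported here.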

Additional observations from a re-analysis of the deposited data

How the results depend on the processing

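The 5 motif differences recomputed (both E-boxes, the octamer and CTCF against earlier-open regions, EBF1 against proB-opened regions) kept their direction in 400 bp windows, around Rescue preB summits and among peaks with −log10 q under 10. Both gene list counts stayed within 1.5 times under the 2 alternatives run. The number of regions meeting the rule was 3013 with every list cut to the 76465 peaks of the shortest, 2934 where peaks counted as shared only if each covered at least 50% of the other, 2647 with Rescue proB left out of the rule and 128 with Rescue stages read from the source names. It stayed within 1.5 times of 1708 with strict peaks (1593) and with no other peak within 1 kb (1188). The share at a promoter was 12.9% with windows of 2500 bp, 7.60% with strict peaks and 4.80% with no other peak within 1 kb. Of new WT preB regions, 68.2% were open in Rescue preB with strict peaks, 57.2% with lists of equal length and 28.4% by source names. Immunoglobulin loci held 38 regions with lists of equal length and 0 by source names. The EBF1 difference from proB-opened regions was -12.3 points in 400 bp windows, -6.00 among peaks with −log10 q under 10 and 0.020 with reversed letters. The CTCF difference from earlier-open regions was -4.93, -4.97 and -0.012 points in these settings. Reversed letters gave -0.54 points for CAGCTG, 1.09 for CAGGTG and 0.14 for the octamer. The reversed octamer and CTCF letters matched only 0.0915% and 0.0124% of earlier-open regions. Like those of CAGCTG, they were too rare to serve as a control.

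No paired analysis was possible because each group has 1 library and no test was run. The lowest called pileup was 10 to 12 fragments, and absence at an earlier stage means not called at this depth. The causes of these shifts were not tested.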
